A study of Mus musculus with 12 samples.

Results

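Aminoacyl-tRNA synthetases are the enzymes that attach each amino acid to its tRNA, and 41 genes of this family and its scaffold were measured among the 13304 genes listed for total RNA of mouse liver. They were taken by name, as the symbols of the synthetases, the bifunctional Eprs, both subunits of the phenylalanyl enzyme (Farsa and Farsb), Tarsl2 and the scaffold genes Aimp1, Aimp2 and Eef1e1. Of these, 19 encode cytosolic enzymes, 17 mitochondrial enzymes whose symbols end in 2, 2 (Gars and Kars) enzymes shared by both compartments, and 3 the scaffold. The libraries came from 5 Maf1-/- mice (KO 1 to KO 5) and 7 wild-type mice (WT 1 to WT 7), 1 library a mouse. All were C57Bl/6J animals on chow, 12 to 14 weeks old, fasted overnight and refed for 4 h, and the livers were perfused. MAF1 is the repressor of RNA polymerase (pol) III, the enzyme that transcribes the tRNA genes, so the comparison asks whether mRNAs for tRNA charging enzymes differ in livers that lack this repressor.

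A synthetase joins the amino acid to AMP and passes it to the 3′ end of the tRNA, and the charged tRNA is carried to the ribosome by elongation factor. Most amino acids have separate nuclear genes for the cytosolic and the mitochondrial enzyme. Several cytosolic enzymes sit with the 3 scaffold proteins in a large particle, the multisynthetase complex. Uncharged tRNA activates the kinase GCN2 (Eif2ak4), which phosphorylates eIF2 and thereby favours translation of the transcription factor ATF4. ATF4 is known to drive many cytosolic synthetase genes through composite elements that it binds with C/EBP partners.

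The core of that element was searched in the promoters because it marks members with a known common regulator. The letters were TGATGNAA on either strand, in 250 bases before and 50 after each start (RefSeq, GRCm38.p6). A promoter was used for 31 of the 41 members, and 5 of them held the core, against 4.51% of 27025 genes. All 5 were cytosolic or shared (Aars, Gars, Iars, Tars and Yars, of 14), while 0 of 14 mitochondrial and 0 of 3 scaffold promoters held it. The matches are shown in capitals, each on the strand of the gene.
Aars: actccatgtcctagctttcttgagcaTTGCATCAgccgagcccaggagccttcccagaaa
Tars: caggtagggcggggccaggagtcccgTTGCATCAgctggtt
Gars: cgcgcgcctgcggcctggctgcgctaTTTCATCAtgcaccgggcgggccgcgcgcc
Iars: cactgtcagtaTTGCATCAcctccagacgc
Yars: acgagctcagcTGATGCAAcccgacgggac
The Aars stretch lies at chr8:111033704-111033763 on the plus strand, Tars at chr15:11399659-11399699 on the minus strand, and Gars at chr6:55037945-55038000 on the plus strand. Iars lies at chr13:49682126-49682155 and Yars at chr4:129189895-129189924, both on the plus strand, where the match falls just after the start. Aars, Gars, Iars and Tars carry the core on the opposite strand, so it reads there as TTGCATCA or TTTCATCA. Aars holds a second match after the start.

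A second motif, the core bound by NRF1, a factor known for driving nuclear genes of mitochondrial proteins, was shown because it occurs in the promoter of Vars2, one of the members described below. Its letters CGCANGCG were found on either strand in 11 of the 31 promoters, against 9.22% of genes. These were 4 of the 14 mitochondrial ones (Iars2, Mars2, Vars2 and Wars2) and 4 of 12 cytosolic ones (Farsa, Farsb, Mars and Tars). Both shared promoters (2 of 2) and 1 of 3 scaffold promoters (Eef1e1) also held it, so the core was not particular to the mitochondrial class. No match of this motif overlapped one of the ATF4 element in these promoters. In Vars2 the matches cluster at chr17:35667600-35667659, on the minus strand, and a pair of them overlap, so that they appear as a single run of capitals.
Vars2: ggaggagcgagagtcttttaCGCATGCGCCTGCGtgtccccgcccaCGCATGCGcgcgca
A match is a run of letters only, and binding was not measured in these samples.

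The libraries held 34709661 to 41931441 reads in the listed genes (median 38637056) in Maf1-/- livers and 35003720 to 55787438 (median 41295043) in WT livers. Values are log2 RPM (reads per 1000000, after scaling of the libraries) and were not divided by gene length, and fold changes are Maf1-/- over WT. Maf1 itself had 5 to 52 reads in Maf1-/- livers and 254 to 534 in WT livers, a log2 fold change of −4.79 (SE 0.44, limma, adjusted p = 6.0e-04). The 6 hepatocyte markers (Alb, Apoa1, Ttr, Cps1, Hnf4a and Tat) were all listed, and their sum was 96060 to 130600 RPM in Maf1-/- livers and 89270 to 118400 in WT livers. Stellate cell markers (7 of 7 listed) summed to 506.7 to 735.1 RPM in Maf1-/- livers and 409.3 to 597.5 RPM in WT livers, where the highest sum was that of WT 2. Erythroid markers (4 of 4) summed to 61.5 to 96.5 RPM in Maf1-/- livers and 66.3 to 135.8 RPM in WT livers, where the lowest sum was that of WT 2. Hba-a1, Hbb-bs and Hbb-bt among them are globin genes, whose RNA the library kit depletes, so that step enters the sum as well. None of 6 pancreatic enzyme markers was listed. The markers' part in the results below was not tested, and in whole liver fewer cells of a type cannot be told apart from less RNA per cell. One library stood apart, since GC-rich genes ran low in WT 2. Each gene's log2 value was taken as a deviation from its mean over all libraries, so these slopes compare the libraries with each other. For a rise of 10 points in GC content this deviation moved by −0.54 to 0.08 among Maf1-/- livers. It moved by 0.14 to 0.35 among 6 of the WT livers, and by −0.57 in WT 2.

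Summed synthetase mRNA overlapped between the genotypes. The 41 members summed to 2004 ± 92.9 RPM in Maf1-/- livers (SD, n = 5, range 1868 to 2108) and 1923 ± 97.5 in WT livers (SD, n = 7, range 1799 to 2094). The ranges overlap over most of their width. Mitochondrial enzymes made up 14.8 to 16.1% of this sum in Maf1-/- livers (median 15.9%) and 15.1 to 17.9% in WT livers (median 16.8%), or 16.3% in WT 2.

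Levels were set side by side after division by exon length. That length joins the exons of all annotated transcripts of a gene, so it can exceed the length of its main mRNA. The order and the differences between genes therefore depend on the annotation. Before division Aars had a WT mean of 8.20, on 9282 bases, and Nars one of 6.99, on 2632 bases. In WT livers they spanned log2 values per kilobase of −0.12 for Wars2, which charges mitochondrial tryptophan tRNA, to 5.59 for Nars, the asparaginyl enzyme. Nars (5.44 to 5.70 over the 7 WT libraries), Tars, the threonyl enzyme (5.31 to 5.89), and Dars, the aspartyl enzyme (5.21 to 5.64), overlapped at the top of the order, followed by Eprs at 5.00, which charges both glutamate and proline tRNA, and Aars at 4.99, the alanyl enzyme. The lowest cytosolic member was Vars, the valyl enzyme, at 1.68. Among 19 pairs of a cytosolic and a mitochondrial gene for the same amino acid, the cytosolic gene had the higher mean level per kilobase in 17, with a median difference of 2.05 on the log2 scale. The exceptions were Farsa (2.17, against 3.38 for Fars2, the highest mitochondrial member) and Tarsl2 (2.13, against 2.55 for Tars2). Vars and Vars2, Cars and Cars2, Iars and Iars2, and Yars and Yars2 lay within 0.10 of each other.

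None of the 41 members passed the test between genotypes, which asked for an adjusted p below 0.01 together with a log2 fold change beyond 0.5 in size (limma, two-sided, p adjusted over all genes), and none passed by voom on the recovered reads. Over all genes, 2 of 13304 (0.015%) passed. This fit held no factors of technical variation, which the model of the study included, and the calls with such factors are given below. At an unadjusted p under 0.05, limma gave 10 of 41 members (24.4%), against 23.1% of all genes, and voom also gave 10. Of these 10, 7 had lower means in Maf1-/- livers, where 13.2% of all genes did, and 3 had higher means, where 9.9% of all genes did. These shares are close to the background. The median log2 fold change was 0.07 over the 21 cytosolic and shared members and −0.05 over the 17 mitochondrial members, against −0.02 over all genes, and each median had 1 SD between libraries of 0.05 and 0.07.

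**Figure D1:**
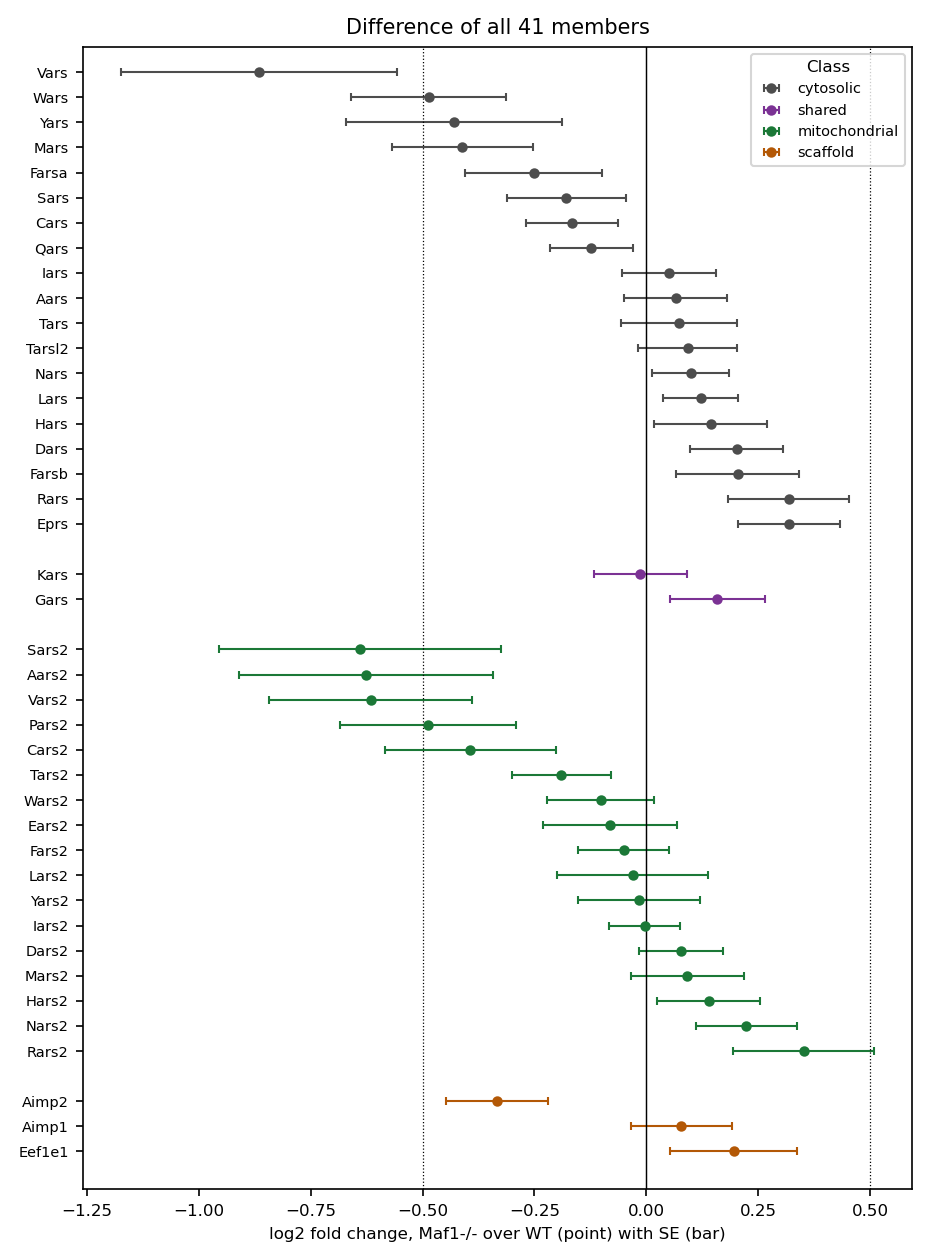
Log2 fold change, Maf1-/- over WT (x axis), of all 41 members, ordered by value within the cytosolic, shared, mitochondrial and scaffold classes; bars are the limma SE and dotted lines stand at 0.5 in each direction. Values run from −0.87 for Vars to 0.35 for Rars2, and 0 members passed the adjusted test.

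Among the cytosolic enzymes, 8 had fold changes below 0 and 11 above, where all genes had 7035 below and 6269 above. An unadjusted p under 0.05 (limma) was reached by 3 below and 2 above, or 26.3% together, against 23.1% of all genes. Vars lies at chr17:35000987-35016322 (GRCm38). It had values of 3.48, 4.22, 3.06, 2.58 and 3.17 in KO 1 to KO 5, against a lowest of 2.98, a median of 4.22 and a highest of 4.74 in WT livers. KO 2 lay at the WT median and WT 2 was the lowest WT library, with the other 6 at 4.17 or more, so the groups overlapped. The log2 fold change was −0.87 (SE 0.31, 95% interval −1.53 to −0.20, limma, p = 0.015, adjusted p = 0.19; exact permutation p = 0.043).

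Wars, the tryptophanyl enzyme, had 4.40, 4.38, 3.92, 4.11 and 4.08 in KO 1 to KO 5, against 3.87, 4.79 and 4.93 as lowest, median and highest in WT livers. All Maf1-/- values lay below the 6 WT libraries other than WT 2, which was lower still. Its log2 fold change was −0.49 (SE 0.17, limma, adjusted p = 0.19; exact permutation p = 0.024).

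Mars, which charges both initiator and elongator methionine tRNA, had 5.15, 5.52, 4.97, 4.99 and 5.16 in KO 1 to KO 5, against 4.97, 5.65 and 5.87 in WT livers. KO 2 and WT 2 again crossed between the groups. The log2 fold change was −0.41 (SE 0.16, limma, adjusted p = 0.20; exact permutation p = 0.038). Mars overlaps Ddit3, a stress-induced transcription factor gene, which was also listed.

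Eprs, at chr1:185363044-185428360, went the other way, with 8.10, 7.93, 8.35, 8.31 and 8.11 in KO 1 to KO 5, against 7.60, 7.85 and 8.06 in WT livers. KO 2 lay within the WT range, and the other Maf1-/- values lay above every WT library. Its log2 fold change was 0.32 (SE 0.11, limma, adjusted p = 0.19; exact permutation p = 0.011). Rars, the arginyl enzyme of the same complex, had a log2 fold change of 0.32 (SE 0.13, limma, adjusted p = 0.20). Nars, the member of highest level per kilobase, had 6.96, 7.01, 7.10, 7.27 and 7.09 in KO 1 to KO 5, against 6.84, 6.99 and 7.10 in WT livers, a log2 fold change of 0.10 (SE 0.09, 95% interval −0.09 to 0.29). The remaining 13 cytosolic members had fold changes between −0.43 (Yars) and 0.20 (Farsb).

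The 5 members with the ATF4 core printed above had log2 fold changes of 0.07 (Aars), 0.16 (Gars), 0.05 (Iars), 0.07 (Tars) and −0.43 (Yars), and none had an unadjusted p under 0.05. Their standard errors were 0.11 to 0.24.

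Both shared enzymes overlapped between genotypes. Kars, the lysyl enzyme, had 5.89, 5.74, 5.92, 6.15 and 5.97 in KO 1 to KO 5, against 5.79, 5.90 and 6.28 in WT livers. The log2 fold change of −0.01 (SE 0.10, 95% interval −0.24 to 0.21) changed sign under several settings, among them the correction for GC content. Gars, the glycyl enzyme, had 5.98, 5.79, 6.15, 6.24 and 6.18 in KO 1 to KO 5, against 5.67, 5.89 and 6.08 in WT livers, with a log2 fold change of 0.16 (SE 0.11, 95% interval −0.07 to 0.39).

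Among the mitochondrial enzymes, 12 fold changes were below 0 and 5 above, where all genes had 7035 below and 6269 above. An unadjusted p under 0.05 (limma) was reached by 3 below and 1 above, or 23.5% together, against 23.1% of all genes. Vars2, at chr17:35655634-35667592, charges mitochondrial valine tRNA. It had 3.84, 3.81, 3.14, 2.96 and 3.43 in KO 1 to KO 5, against 3.11, 4.15 and 4.41 in WT livers. The Maf1-/- values all lay under the 6 WT libraries other than WT 2 (4.09 to 4.41). Its log2 fold change was −0.62 (SE 0.23, limma, adjusted p = 0.19; exact permutation p = 0.037).

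Aars2, the mitochondrial alanyl enzyme, had 3.16, 3.27, 2.43, 2.39 and 3.06 in KO 1 to KO 5, against 2.20, 3.73 and 3.93 in WT livers, where WT 2 was the lowest of all 12 libraries. The log2 fold change was −0.63 (SE 0.28, limma, adjusted p = 0.21; exact permutation p = 0.076). Sars2, the mitochondrial seryl enzyme and the member with the largest spread within genotypes (SD 0.59), had 2.15, 2.17, 1.23, 1.42 and 1.83 in KO 1 to KO 5, against 0.90, 2.67 and 2.87 in WT livers. Its log2 fold change was −0.64 (SE 0.31, limma, adjusted p = 0.23; exact permutation p = 0.097), on 76 to 325 reads a library. These genes share a pattern of low values in KO 3, KO 4 and WT 2.

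Pars2, the mitochondrial prolyl enzyme, had 1.78, 1.75, 1.25, 1.81 and 1.58 in KO 1 to KO 5, against 1.30, 2.20 and 2.52 in WT livers, a log2 fold change of −0.49 (SE 0.20, limma, adjusted p = 0.20; exact permutation p = 0.045). Rars2, the mitochondrial arginyl enzyme, had 4.58, 4.35, 4.90, 5.05 and 4.86 in KO 1 to KO 5, against 4.17, 4.30 and 4.97 in WT livers, a log2 fold change of 0.35 (SE 0.16, limma, adjusted p = 0.21; exact permutation p = 0.059). In Rars2, WT 2 was the highest WT library, and the other 6 stood at 4.47 or less. Fars2, the mitochondrial phenylalanyl enzyme, had 4.47, 4.36, 4.26, 4.36 and 4.63 in KO 1 to KO 5, against 4.32, 4.43 and 4.69 in WT livers, a log2 fold change of −0.05 (SE 0.10). The other 11 mitochondrial members had fold changes between −0.39 (Cars2) and 0.22 (Nars2).

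In the scaffold, Aimp2 (chr5:143902704-143909847) was the single member of 41 whose groups did not overlap, with 2.88, 2.93, 2.90, 3.04 and 2.91 in KO 1 to KO 5, against 3.06, 3.19 and 3.61 in WT livers. Of all genes, 0.203% were apart in this direction and 0.383% in the other. The gap between the groups was small, and WT 2 lay among the WT libraries at 3.10. The log2 fold change was −0.33 (SE 0.11, limma, adjusted p = 0.19; exact permutation p = 0.0051). Aimp2 overlaps Eif2ak1, the gene of the heme-regulated eIF2 kinase, which had a log2 fold change of −0.23 (SE 0.08, limma, adjusted p = 0.19), and the strand setting of the counting is not given in the sources used here, so their reads cannot be told apart where they overlap. Aimp1 had 4.50, 4.57, 4.46, 4.75 and 4.81 in KO 1 to KO 5, against 4.19, 4.54 and 4.79 in WT livers, a log2 fold change of 0.08 (SE 0.11). Eef1e1 had 3.47, 3.67, 3.72, 4.07 and 3.46 in KO 1 to KO 5, against 3.28, 3.42 and 3.97 in WT livers, a log2 fold change of 0.20 (SE 0.14). In both the groups overlapped. Over the 11 members of the multisynthetase complex, 4 fold changes were below 0 and 7 above, with a median of 0.08. All genes had 7035 below 0 and 6269 above, with a median of −0.02.

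**Figure D2:**
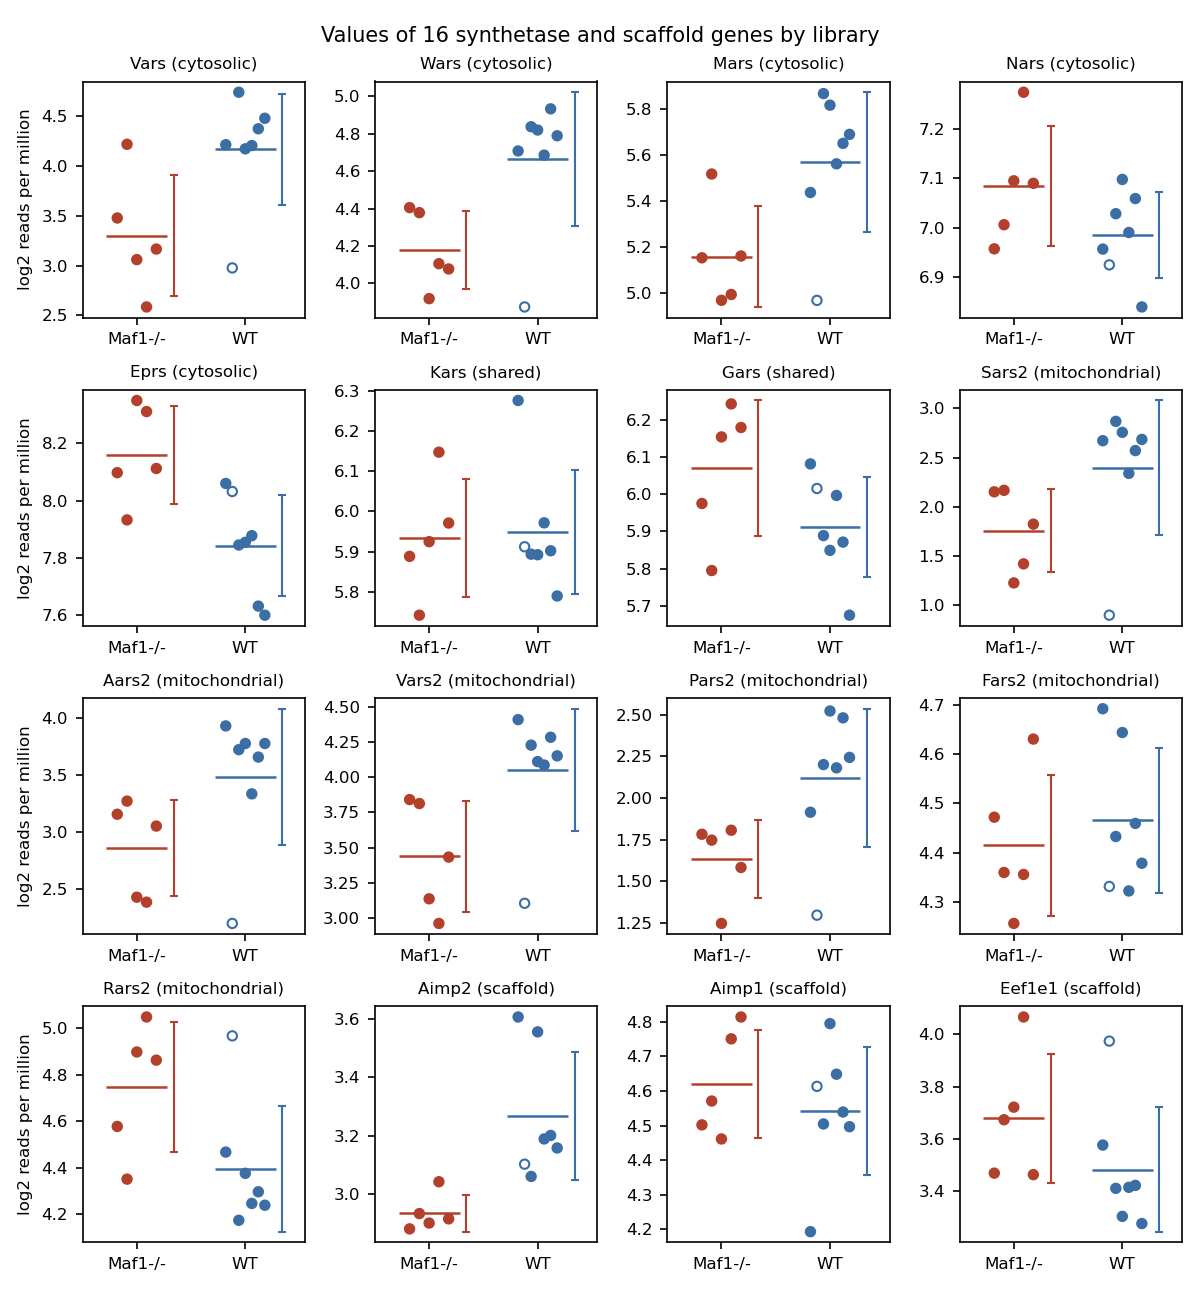
Log2 RPM (y axis) of 16 members in each library, Maf1-/- left and WT right; horizontal lines are means, vertical bars are SD (n = 5 and 7), and the open point is WT 2. For Vars and Vars2 the open point lies within the range of the Maf1-/- libraries, and for Wars, Aars2 and Sars2 it lies below all of them. For Aimp2 the groups are apart (2.88 to 3.04 in Maf1-/- livers, 3.06 to 3.61 in WT livers).

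The order of the members followed their GC content. The 10 members of highest GC content (52.9 to 60.3%) had a median log2 fold change of −0.44, with 9 below 0, and the 10 of lowest GC content (41.2 to 45.7%) had a median of 0.20, with 8 above 0. Over the 41 members the fold change ran with GC content at r = −0.83 (rho = −0.81), given as a description because all members share the same 12 libraries. Vars (60.3%), Sars2 (60.1%), Aars2 (60.0%) and Vars2 (58.4%) held the highest GC contents and the lowest fold changes. Fars2 (56.7%) and Aars (53.1%) were GC-rich with fold changes near 0.

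The same order was seen inside the WT group. In WT 2 all 10 members of highest GC content lay under the other WT libraries' mean, by a median difference of −0.95, and all 10 of lowest GC content lay above it, by a median difference of 0.33. Among the Maf1-/- libraries the median deviation of the GC-rich members from their mean over all libraries was −0.49 in KO 3 and −0.30 in KO 4, the libraries with the steepest negative GC slopes, and 0.03 in KO 2, the library with a positive one.

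After the trend of each library with GC content and gene length had been subtracted, the correlation over the members was −0.33, and the median fold change was −0.12 for the GC-rich and 0.04 for the GC-poor members. Vars had a log2 fold change of −0.32 (SE 0.10, unadjusted p = 0.0095), Vars2 of −0.13, Aars2 of −0.11 and Sars2 of −0.18. Wars had −0.25, Mars −0.25, Pars2 −0.36 and Fars2 0.30. Eprs then had 0.20, Rars 0.15 and Rars2 0.19, and Aimp2, whose groups were apart as deposited, had −0.20 (SE 0.10, unadjusted p = 0.068). In this fit 5 of 41 members had an unadjusted p under 0.05, against 18% of all genes with a GC value. The adjusted test was passed by 0 members, and by 1 of 12482 genes.

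**Figure D3:**
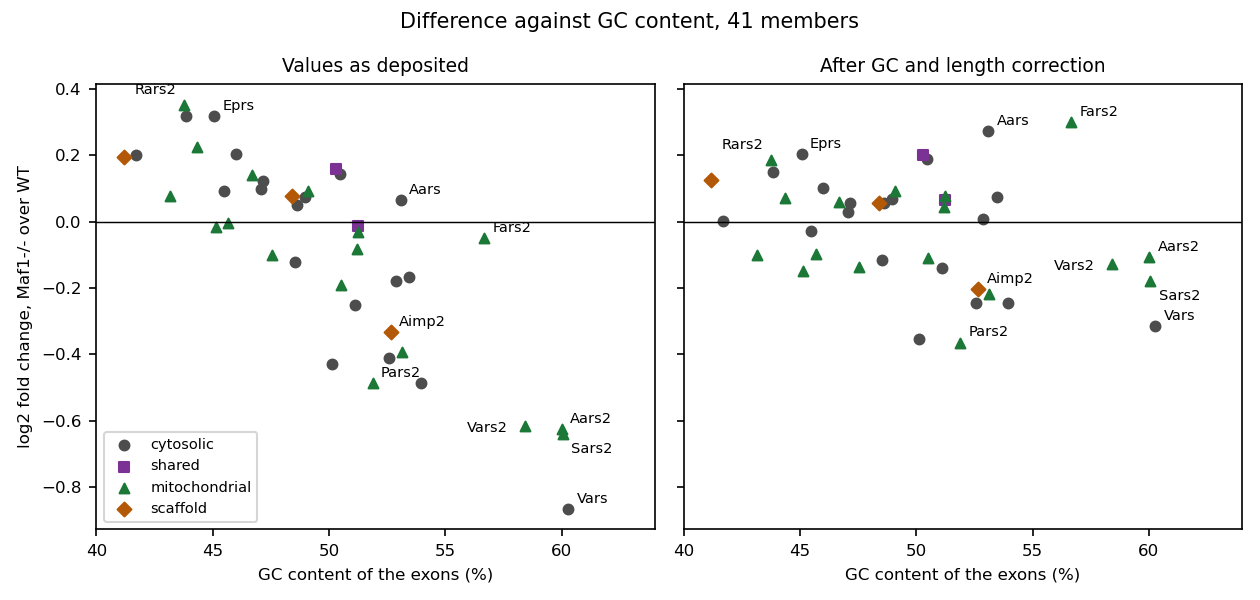
Log2 fold change, Maf1-/- over WT (y axis), against the GC content of the exons in percent (x axis) for the 41 members, as deposited (left) and after the GC and length correction (right); symbols give the class. The fold changes run lower with higher GC content on the left (r = −0.83) and less so on the right (r = −0.33).

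The calls depended on the model and on WT 2. Without this library 5 members were lower at the adjusted threshold, Wars, Aars2, Vars2, Pars2 and Sars2, and 0 higher, while 5.22% of all genes were called lower and 1.57% higher. Their log2 fold changes were then −0.62, −0.84, −0.77, −0.63 and −0.89 (limma, adjusted p = 0.0065 to 0.0095), and Vars missed the threshold at −1.06 (adjusted p = 0.0105). Groups were then apart for 7 members with lower values in Maf1-/- livers (8.22% of all genes) and for Rars with higher values (4.37% of all genes). With 1 factor of residual variation in the model and all 12 libraries, Vars, Aars2, Vars2 and Sars2 were lower and 0 members higher, against 6.86% and 1.23% of all genes. With libraries weighted by their fit, 9 members were lower and 0 higher, against 10.9% and 4.24%. When GC content and length were corrected as well, 0 of 41 members were called with 1 factor, against 0.737% of the 12482 genes with a GC value. Without WT 2 and with that correction it was 0 of 41, against 3 of the 12482 genes. Apart from WT 2, the GC slopes did not overlap between Maf1-/- livers (−0.54 to 0.08) and WT livers (0.14 to 0.35). The GC trend thus went with genotype in these libraries, and its part in the calls was not tested.

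RNA from the tRNA genes was compared from a separate table of RNA-seq scores, with 1 value per genotype for each pol III locus (mm9), so it allows no test. How the scores weigh precursor and mature tRNA is not given in the sources used here, so they cannot be read as levels of the mature tRNA that the enzymes charge. By northern blot of refed liver, the study reported higher levels of the probed precursor tRNAs in Maf1-/- mice and unchanged levels of the probed mature tRNAs. Those rises were modest, smaller than in fasted liver, and not all reached the significance level the study marked. Their sizes were not compared with the scores. Summed over the loci of each amino acid, the score was higher in Maf1-/- livers for all 20 amino acids. The ratio of Maf1-/- to WT ran from 1.70 for cysteine to 5.19 for phenylalanine, with a median of 2.90. Of 430 tRNA loci for these amino acids, 310 had the higher score in Maf1-/- livers and 23 the higher score in WT livers. Near-identical copies of a tRNA gene can share reads, so single loci are uncertain.

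The synthetase mRNAs had smaller ratios than the scores of the tRNA loci, though the scaling of the scores is not given in the sources used here. For phenylalanine the scores were 340.2 in Maf1-/- livers and 65.5 in WT livers, while Farsa, Farsb and Fars2 had log2 fold changes of −0.25, 0.20 and −0.05. For valine the scores were 262.1 in Maf1-/- livers and 76.2 in WT livers, beside −0.87 for Vars and −0.62 for Vars2. For glycine, which carried 71.2% of the WT sum, the scores were 35421 in Maf1-/- livers and 15106 in WT livers, beside 0.16 for Gars. The log2 ratio of the tRNA scores was 0.77 to 2.38 over the amino acids. Every one of the 38 synthetase genes lay below that range, with a highest fold change of 0.35. Pol III transcribes nuclear tRNA genes, so the scores leave out the tRNAs that the 17 mitochondrial enzymes charge. For these enzymes the loci share the amino acid only. Over 22 pairs of an amino acid and a cytosolic or shared gene, rho between both log2 ratios was 0.28, as a description.

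**Figure D4:**
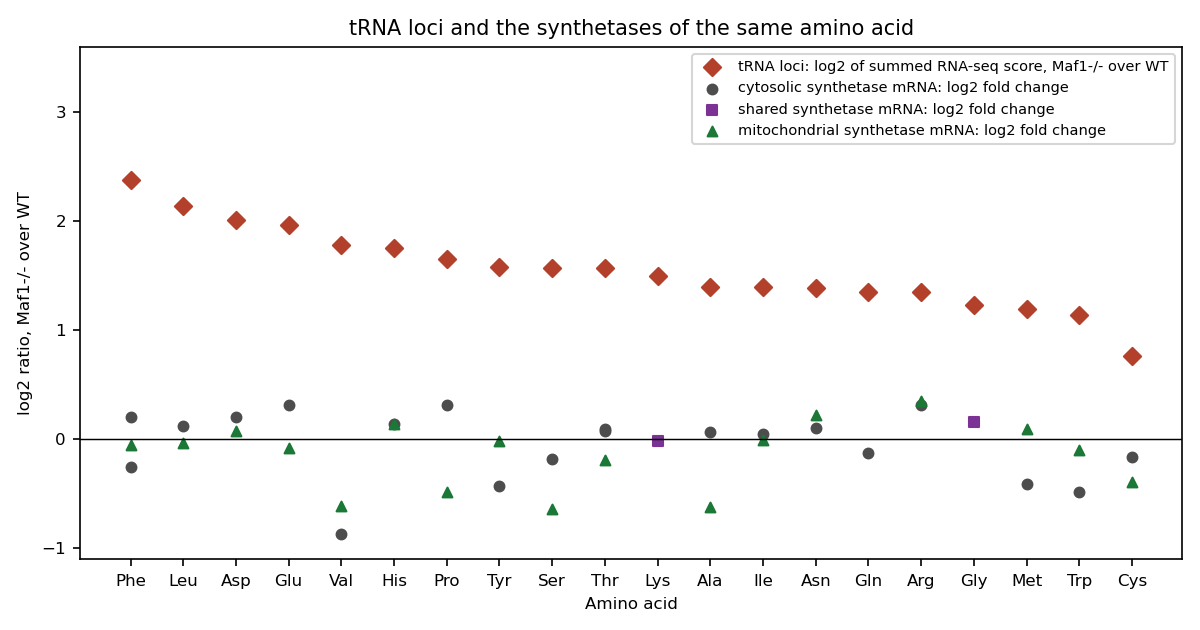
Log2 ratio, Maf1-/- over WT (y axis), for each amino acid (x axis, ordered by the tRNA ratio): diamonds are summed RNA-seq scores of the tRNA loci, other symbols are cytosolic, shared and mitochondrial synthetase mRNAs. All 20 diamonds lie between 0.77 and 2.38, and the synthetases lie between −0.87 and 0.35. The mitochondrial enzymes charge tRNAs that these pol III loci do not encode.

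Genes of the response through eIF2, which uncharged tRNA enters through GCN2, were described next to genes of the ATF4 pathway. The list is wider than the response to uncharged tRNA, since it also held kinases that other signals activate, such as Eif2ak1. The 16 measured genes were kinases, the GCN2 regulators Gcn1l1 and Impact, eIF2 and eIF2B subunits and phosphatase subunits. Of these, 3 had a lower and 1 a higher mean at an unadjusted p under 0.05 (limma), or 25.0% together, against 23.1% of all genes. The median log2 fold change of the 16 was −0.00. Ppp1r15a, the stress-induced subunit that dephosphorylates eIF2, had a lowest, median and highest value of 1.61, 2.12 and 2.46 in Maf1-/- livers, against 2.07, 2.88 and 3.15 in WT livers, a log2 fold change of −0.66 (SE 0.19, limma, adjusted p = 0.19), or −0.33 after the GC and length correction. Eif2b2, a subunit of the eIF2 exchange factor, had −0.47 (SE 0.18), or −0.24 after it.

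Of 27 measured ATF4 pathway genes, 7 were lower (13.2% of all genes) and 3 higher (9.9% of all genes) at an unadjusted p under 0.05, and the median log2 fold change was −0.05. After the GC and length correction 3 were lower and 3 higher, or 22.2% together, against 18% of all genes with a GC value. Atf4 itself had 6.74 ± 0.10 in Maf1-/- livers and 6.62 ± 0.26 in WT livers (SD, n = 5 and 7). Its log2 fold change was 0.12 (SE 0.13), or 0.31 after the correction. Atf5, a related factor, had a log2 fold change of −1.20 (SE 0.40, limma, adjusted p = 0.19), or −0.71 after the correction, and its lowest values were 5.22 in Maf1-/- livers and 5.20 in WT 2. Sesn2, an inhibitor of mTORC1 signalling, had −0.68 (SE 0.22), or −0.20 after it, and Nupr1, a stress-induced chromatin protein, had 0.75 (SE 0.26), or 0.77 after it.

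Genes that act beside the synthetases were counted in the same way, against the same 13.2% of all genes lower and 9.9% higher. Of 16 measured genes for accessory charging steps, 1 was lower and 0 higher at an unadjusted p under 0.05: Eefsec, the selenocysteine elongation factor, at −0.34 (SE 0.14), or 0.02 after the GC and length correction. Of 10 delivery factors, 1 was lower and 2 higher, namely Tsfm, the mitochondrial exchange factor (−0.50, SE 0.23, or −0.42 after the correction), Xpo5, an exporter of small RNAs (0.23, SE 0.09, or 0.28 after it), and Gfm1, a mitochondrial elongation factor (0.30, SE 0.13, or 0.18 after it). Of 15 genes for mitochondrial tRNA transcription and maturation, 2 were lower and 2 higher, or 26.7% together, against 23.1% of all genes. Polrmt, the mitochondrial RNA polymerase, had −0.83 (SE 0.32), or −0.28 after the correction, and Trnt1, which adds the CCA end to which amino acids are joined, had 0.28 (SE 0.11), or 0.04 after it. None of these genes passed the adjusted test (limma).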

How the data were processed

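Total RNA of liver was sequenced from 5 Maf1-/- and 7 WT mice with a ribosomal and globin depletion kit that keeps strand. Per the labels and the methods of the study, the authors trimmed reads with cutadapt 1.8, removed ribosomal and low complexity reads, aligned with STAR 2.5.2b to GRCm38, counted per gene with HTSeq 0.6.1 and scaled with TMM in edgeR 3.14.0. Their own test in limma also held factors of technical variation from RUVSeq, of a number not given in the sources used here. The deposited log2 values are labelled RPKM, but in 100% of them the read number can be recovered as a whole (tolerance 0.001) after subtraction of an added 0.5, with the same scale for every gene of a library, which leaves no room for a gene length. The deposited pol III table holds an RNA-seq score, 1 per genotype and locus (mm9), whose making is not given in the sources used here.

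Genes were compared in limma 3.58.1 (R 4.3.3, no trend, no such factors), with p adjusted over 13304 genes by Benjamini and Hochberg and calls where that p was below 0.01 and the log2 fold change beyond 0.5 in size. Exact permutation p-values for single genes are two-sided over all 792 divisions (smallest 0.0013). The replicates are separate mice. GC content and length came from mm9 exons joined by gene identifier (93.8% of genes, 41 of 41 members), and the loess span was 0.4. Named members are up to 4 per class with the smallest unadjusted p, the highest level per kilobase in each class and the largest spread; from other lists up to 3 genes, and Atf4, named after its value was seen. Members and lists were chosen with earlier results of these data known. Overlaps use RefSeq positions (GRCm38.p6). Besides Mars and Aimp2, members overlapping a listed gene were Wars (Wdr25), Yars (C77080), Iars (Gm25394), Tars2 (Rprd2) and Ears2 (Ubfd1). Others were Iars2 (Rab3gap2), Rars2 (Orc3), Aimp1 (Tbck), and Hars with Hars2. For these too, reads cannot be told apart where the genes overlap. Further motifs were searched: an E-box (CACGTG), in 5 of 31 promoters (8.09% of genes), a CCAAT box, in 16 (41.1%), and a TATA box (TATAAA), in 3 (15.7%). The markers of Kupffer, endothelial, bile duct, B, T and neutrophil cells had summed levels whose ranges overlapped between genotypes.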

Additional observations from a re-analysis of the deposited data

Results flagged for a closer look

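Of 42 groups of values checked for a library far from the others, 11 had one, and 10 of these were WT 2. The groups share the same 12 libraries, several restate the GC trend, and the members were chosen by p, level or spread. The share of about 1 in 20 that chance gives for separate groups therefore cannot be set against this count. WT 2 was low among the 7 WT libraries for Vars (2.98, others 4.17 to 4.74), Wars (3.87, others 4.69 to 4.93), Vars2 (3.11, others 4.09 to 4.41), Aars2 (2.20, others 3.34 to 3.93) and Sars2 (0.90, others 2.34 to 2.87). It was high for Rars2 (4.97, others 4.17 to 4.47) and Eef1e1 (3.97, others 3.28 to 3.58). Its slope on GC content, of deviations from the mean over all libraries, was −0.57 log2 units per 10 points (others 0.14 to 0.35). The median deviation of the 10 members of highest GC content was −0.63 (others 0.16 to 0.44). For the 10 of lowest it was 0.24 (others −0.24 to −0.03). The remaining case was WT 1 for Kars, at 6.28, with the others at 5.79 to 5.97.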

How the results depend on the processing

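The number of genes called over the whole table was 2. It was 1076 with 1 residual factor, 1276 with 2, 2019 with library weights, 1 with the GC and length correction and 92 with that correction and 1 factor, and 2 to 904 when 1 library was left out, with 904 without WT 2. Members called numbered 0, and 4 with 1 or 2 factors, 9 with library weights and 0 to 5 when 1 library was left out. The numbers of the libraries did not pair them, since correlations of same-numbered libraries ran from −0.46 to 0.23, and with the replicate block 1 gene was called (0 with the GC and length correction) and 0 members in both. Median centring raised every log2 fold change by 0.10. The cytosolic median was then 0.16 and the mitochondrial median 0.049, against 0.075 over all genes. The mitochondrial median was −0.13 without WT 2 and with the GC and length correction, a setting chosen after seeing the data. Of 400 fold changes of the 16 named members under 25 settings, 366 kept their sign and stayed on their side of the threshold, 20 also passed it and 14 changed sign. Fars2 had 0.30 with the GC and length correction, with or without 1 factor, 0.23 with the replicate block added, 0.049 with median centring and 0.39 without WT 2 and with the correction. Kars had 0.065 with the correction, with or without 1 factor, 0.021 with the replicate block added, 0.086 with median centring, 0.030 with library weights, −0.067 (without KO 4) to 0.041 (without WT 1) when 1 library was left out, and 0.088 without WT 2 and with the correction, where Nars had −0.0012. The cause was not tested. The SE of the members ran from 0.08 to 0.31 and did not simply go with read number, since Pars2 (88 to 226 reads) had 0.20 and Vars (220 to 1139 reads) 0.31.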
